A study of Mus musculus with 14 samples.

Results

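The genes of the circadian clock measured in these hearts were *Arntl* (also called *Bmal1*), *Clock*, *Npas2*, *Per1*, *Per2*, *Per3*, *Cry2*, *Nr1d1*, *Nr1d2* and *Dbp*, 10 of the 18193 genes with a probe set of a single symbol on the array. They were chosen by name: every probe set annotated to exactly 1 of these symbols was taken and compared across the groups and array by array, because the levels of these genes follow the time of day at which a tissue is taken. The symbols were carried by 24 probe sets, and 21 of them passed the filter on low values, which asked 3 or more arrays for a log2 value above 5.75, the table's overall median. The others were 1421036_at of *Npas2* and 1421086_at and 1460662_at of *Per3*, which were above that level in 0 of 14 arrays. Each of the 10 genes kept at least 1 probe set, and a gene is counted below by the brightest of them, that with the highest mean over all arrays. The brightest probe set of *Npas2* was above the limit in exactly 3 arrays, basal WT 3, basal KO 1 and basal KO 2, so *Npas2* was kept only through basal arrays.

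The study used left ventricles of male C57BL/6 mice that were wild type (WT) or knockout (KO) for *Hspb8*, the gene of the small heat shock protein Hsp22, on the Affymetrix array Mouse430_2. Basal hearts, labelled as without pressure overload, gave 3 WT and 3 KO arrays. Hearts 3 days after transverse aortic constriction (TAC), an operation on the aorta that makes the left ventricle work against a raised pressure, gave 4 WT and 4 KO arrays. The samples hold no sham-operated group, and which part of *Hspb8* was removed, in which cells, is not said in the labels. The time of day of collection and the lighting schedule are not in the labels, so the part of either in any result below was not tested. Array file names put the basal arrays in 1 run, with basal KO 3 on another day, and the TAC arrays in a far later run. A difference between TAC and basal arrays therefore cannot be told apart from a difference between runs or from the surgery itself. Whether every array is a mouse of its own is not in the labels, so p-values measure only the spread between these samples.

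Array medians ran from 5.7 to 5.8 on the log2 scale. Arrays of a group correlated across probe sets with r of at least 0.986, except in TAC WT, where the lowest r was 0.967 and TAC WT 3 was least like the others. The *Hspb8* probe set 1417013_at read 11.09 to 12.29 in WT arrays and 4.27 to 5.13 in KO arrays, so the labels hold for every array on that probe set. Cardiomyocyte markers (9 of 9 kept, mean log2 level 13.94 to 14.34) were high in every array. Macrophage markers (8 of 8 kept) averaged 7.59 to 7.74 in basal WT, 7.92 to 8.04 in basal KO, 8.41 to 10.62 in TAC WT and 9.53 to 9.85 in TAC KO, with the highest mean in TAC WT 3. Fibroblast markers (8 of 8 kept) averaged 9.84 to 10.36, 10.53 to 10.77, 10.88 to 11.7 and 11.8 to 11.98 in the same order. In whole tissue, fewer cells of a type and less RNA per cell cannot be told apart.

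The clock is a feedback loop of transcription. The protein of *Arntl* pairs with CLOCK or its relative NPAS2 and switches on genes that carry an E-box, among them *Per*, *Cry*, *Nr1d* and *Dbp* genes. PER and CRY proteins then block that pair, and the nuclear receptors NR1D1 and NR1D2 repress *Arntl*, so that in most tissues, the heart included, *Arntl* RNA is high when *Dbp* and the *Nr1d* RNAs are low. DBP, TEF and HLF, which are related activators, and their repressor NFIL3 act on D-boxes, and ROR receptors compete with NR1D proteins for the same element.

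RefSeq promoters of GRCm38.p6 were matched to 9 of the 10 genes (13 promoters, *Per2* without one), and the 250 bases before each start were searched on both strands. The letters searched were the E-box CACGTG (in 6.02% of the 32851 promoters of all genes), its variant CACGTT (3.85%), the D-box TTATGTAA (0.819%), the receptor hexamer AGGTCA (14%) and the cyclic AMP element TGACGTCA (1.55%). The stretches below hold the matches found in the promoters of *Per3*, *Per1*, *Cry2*, *Nr1d1*, *Nr1d2* and *Clock*, with the matched letters in capitals. They are shown because they hold letters of the elements on which the loop acts. *Per3*, with 2 copies of the D-box, had the largest difference of the brightest probe sets between TAC and basal KO hearts (1.56). In WT hearts it was *Clock* (1.14, beside 0.79 for *Per3*). Any part of the D-box in these differences was not tested. The *Per3* stretch is chr4:151044796-151044890 (minus strand), the *Per1* stretch chr11:69098763-69098837 (plus strand), the *Cry2* stretch chr2:92434210-92434255 (minus), the *Nr1d1* stretch chr11:98775380-98775425 (minus), the *Nr1d2* stretch chr14:18239158-18239203 (minus) and the *Clock* stretch chr5:76303596-76303641 (minus).
Per3: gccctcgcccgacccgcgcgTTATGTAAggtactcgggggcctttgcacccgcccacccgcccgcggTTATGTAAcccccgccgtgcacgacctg
Per1: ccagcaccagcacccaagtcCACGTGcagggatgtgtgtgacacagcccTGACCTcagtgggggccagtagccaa
Cry2: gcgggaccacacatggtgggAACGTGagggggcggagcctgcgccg
Nr1d1: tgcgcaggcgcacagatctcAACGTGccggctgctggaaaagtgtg
Nr1d2: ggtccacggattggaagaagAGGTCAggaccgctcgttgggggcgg
Clock: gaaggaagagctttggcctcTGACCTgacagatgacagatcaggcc

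AACGTG and TGACCT are the variant E-box and the hexamer read on the other strand. A match is a description of these letters, and no match says only that the letters are not in this window.

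On the brightest probe sets, KO hearts before TAC had higher *Arntl* and *Clock* and lower *Dbp*, *Nr1d2*, *Per1* and *Per3* values than WT hearts. For these genes the 3 arrays of each genotype did not overlap, but no clock gene passed the test across all probe sets. After TAC, *Clock* and *Per3* rose and *Cry2* fell in WT hearts, and *Per3* and *Nr1d2* rose and *Arntl* fell in KO hearts. No clock gene differed between the genotypes after TAC past the threshold. Among TAC arrays, *Nr1d2* and *Per3* followed *Dbp*, which spread widely in TAC WT. Adjusted p-values are from limma, with Benjamini-Hochberg adjustment over 24525 kept probe sets and a threshold of 0.05, and SE is the standard error of the fitted log2 difference.

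These counts stand against a large response of the whole array. TAC against basal WT hearts called 3 of 10 clock genes, 2 higher and 1 lower, while it called 50.2% of all 12260 genes (26.7% higher and 23.5% lower). By probe set, 7 of 21 were called, against 50.2% of all kept probe sets. In 1 of 10 clock genes the WT groups did not overlap, against 49.9% of all genes. Without TAC WT 3 the count was 2 of 10, *Clock* and *Per3*, against 53.5%. In KO hearts TAC called 3 of 10 clock genes, 2 higher and 1 lower, against 43.6% of all genes (22.4% higher and 21.3% lower), and 7 of 21 probe sets, against 43.2%. The KO groups did not overlap in 6 of 10, against 54.3%. The median difference of the 10 genes was 0.07 in WT and -0.15 in KO hearts, beside 0.02 and -0.02 over all genes. In this fit the share of clock genes called was below that of all genes in both genotypes. In KO hearts this turned around in some other settings. With only the arrays of the comparison 8 of 10 were called, against 48.5% of all genes, and with array weights 8 of 10, against 55.4%. It also turned around with a block for the replicate number (4 of 10, against 38.3%) and narrowly without TAC WT 3 (5 of 10, against 49.0%). In WT hearts it turned around only without TAC WT 4 (5 of 10, against 42.4%). Both comparisons cross the array runs.

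**Figure D1:**
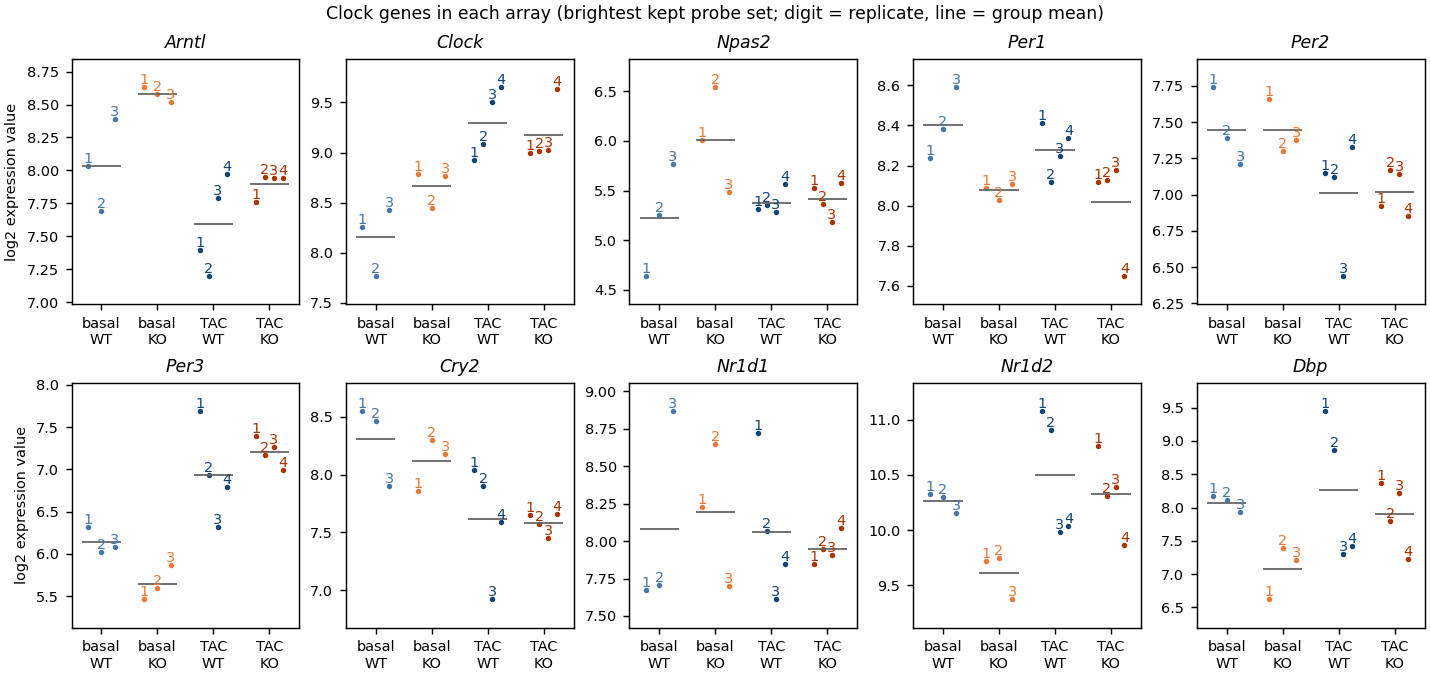
Log2 expression value (vertical axis) of the brightest kept probe set of each clock gene in each of the 14 arrays, by group; digits are replicate numbers and lines are group means. *Clock* in TAC WT arrays (8.93 to 9.65) lies above all basal WT arrays (7.77 to 8.43), and *Dbp* spreads from 7.31 to 9.45 among TAC WT arrays.

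Of the activators, *Arntl* (chromosome 7, 113178471 to 113314126) read 8.03, 7.69 and 8.39 in basal WT arrays 1 to 3 and 8.63, 8.58 and 8.52 in basal KO arrays on its brightest probe set, 1425099_a_at. After TAC it read 7.4, 7.2, 7.79 and 7.97 in WT arrays 1 to 4 and 7.76, 7.95, 7.94 and 7.94 in KO arrays. All basal KO arrays lay above all other arrays, and both TAC groups lay low. In KO hearts *Arntl* fell by 0.68 (SE 0.18, adjusted p = 0.00996, 1.6-fold lower, no overlap). In WT hearts the difference was -0.45 (SE 0.18, adjusted p = 0.0558) and the groups overlapped in the range 7.69 to 7.97. It passed once basal WT 2 (-0.62, adjusted p = 0.0225), TAC WT 3 (-0.51, 0.0453) or TAC WT 4 (-0.57, 0.0211) was left out. With all arrays it passed under quantile normalization (-0.62, adjusted p = 0.0104), array weights (-0.71, 0.00368) or a block for the replicate number (-0.52, 0.0254). The dimmer probe set 1457740_at gave the opposite calls: its difference passed in WT hearts (-0.48, adjusted p = 0.0352) and not in KO hearts (-0.17, adjusted p = 0.429).

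*Clock* (chromosome 5, 76209868 to 76305603), the partner of the *Arntl* protein, read 8.26, 7.77 and 8.43 in basal WT and 8.79, 8.45 and 8.77 in basal KO on 1418659_at. After TAC it read 8.93, 9.09, 9.5 and 9.65 in WT and 9.0, 9.02, 9.03 and 9.63 in KO. Every TAC array of either genotype lay above every basal array. In WT hearts it rose by 1.14 (SE 0.21, adjusted p = 0.000996, 2.2-fold). In KO hearts the difference was 0.50 (SE 0.21, adjusted p = 0.0718), and the difference between these responses, -0.64 (SE 0.30), had adjusted p = 0.64. The other probe sets of *Clock* gave 0.16 (1418660_at, adjusted p = 0.213), 0.05 (1435775_at, 0.744) and 0.43 (1439314_at, 0.0267) in WT hearts, so the 2.2-fold rise is that of 1 of 4 probe sets. The brightest probe sets of *Arntl* and *Clock*, which encode partners, thus gave differences of opposite sign in both genotypes.

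*Npas2* (chromosome 1, 39193702 to 39363240), the relative of *Clock*, lay near the filter limit in all groups. It read 4.64, 5.25 and 5.77 in basal WT, 6.01, 6.54 and 5.49 in basal KO, 5.31, 5.35, 5.28 and 5.57 in TAC WT and 5.53, 5.36, 5.18 and 5.58 in TAC KO. Basal KO was the only group with 2 arrays above 5.75. The difference after TAC was 0.16 in WT (adjusted p = 0.616) and -0.60 in KO hearts (adjusted p = 0.0664). The latter passed without basal KO 3 (-0.86, adjusted p = 0.0215), and also without basal WT 1 (0.0376) or basal WT 3 (0.0421), which enter only through the shared spread.

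Of the repressors, *Per3* (chromosome 4, 150997018 to 151044707) changed most by brightest probe sets, though a dimmer *Per2* probe set, given below, changed more in WT hearts. On 1458176_at *Per3* read 6.32, 6.02 and 6.08 in basal WT and 5.46, 5.59 and 5.87 in basal KO. After TAC it read 7.69, 6.93, 6.32 and 6.79 in WT and 7.39, 7.17, 7.26 and 6.99 in KO. TAC WT 3 equalled the highest basal WT array, and the other TAC arrays lay above all basal arrays. *Per3* rose by 1.56 in KO hearts (SE 0.24, adjusted p = 0.000444), at least 2.95-fold, a lower bound because the basal KO mean, 5.64, is under the limit of 5.75. It rose by 0.79 in WT hearts (SE 0.24, adjusted p = 0.0144, 1.73-fold), a call that was lost without basal WT 2 (0.73, adjusted p = 0.0534). Of its other kept probe sets, 1421087_at rose in KO hearts (0.61, adjusted p = 0.0499) and gave 0.16 in WT hearts (0.589), while 1441445_at and 1442243_at lay between -0.06 and 0.13 in both.

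*Per1* (chromosome 11, 69095108 to 69109965), a light- and hormone-responsive repressor, varied little. It read 8.24, 8.38 and 8.59 in basal WT, 8.09, 8.03 and 8.11 in basal KO, 8.41, 8.12, 8.25 and 8.34 in TAC WT and 8.12, 8.13, 8.18 and 7.65 in TAC KO. The basal WT arrays lay above all KO arrays, and the differences after TAC were -0.12 in WT (adjusted p = 0.463) and -0.06 in KO hearts (0.754).

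*Per2* (chromosome 1, 91415977 to 91459351), its close relative, read 7.74, 7.39 and 7.21 in basal WT, 7.66, 7.3 and 7.38 in basal KO, 7.15, 7.12, 6.44 and 7.33 in TAC WT and 6.92, 7.17, 7.14 and 6.85 in TAC KO on 1457350_at. The TAC KO arrays were all below the basal KO arrays. The differences were -0.44 (SE 0.19, adjusted p = 0.0753) in WT and -0.43 (SE 0.19, adjusted p = 0.0893) in KO hearts. The first passed without TAC WT 4 (-0.54, adjusted p = 0.0429) and the second without TAC WT 3 (-0.43, 0.0248). The probe set 1417603_at fell in both genotypes, by 0.87 in WT (adjusted p = 0.001) and by 0.90 in KO hearts (adjusted p = 0.00122), while 1417602_at gave -0.13 and 0.06. The 3 probe sets of *Per2* thus gave 1 fall past the threshold, 1 difference of the same sign that missed it and 1 near 0.

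*Cry2* (chromosome 2, 92403646 to 92434085), a cryptochrome that blocks the activator pair, had 1 probe set. It read 8.55, 8.46 and 7.9 in basal WT, 7.86, 8.3 and 8.18 in basal KO, 8.04, 7.9, 6.92 and 7.59 in TAC WT and 7.65, 7.57, 7.45 and 7.66 in TAC KO. TAC WT 3 was the lowest array, and the TAC KO arrays lay below all basal arrays. *Cry2* fell by 0.69 in WT hearts (SE 0.23, adjusted p = 0.0245, 1.61-fold lower). Leaving out basal WT 1 (-0.57, adjusted p = 0.0971), basal WT 2 (-0.61, 0.087) or TAC WT 3 (-0.46, 0.0507) ended the call. In KO hearts the difference was -0.53 (SE 0.23, adjusted p = 0.0777), which passed without TAC WT 3 (0.0185), an array that enters there only through the shared spread.

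The nuclear receptors *Nr1d1* and *Nr1d2* (REV-ERB alpha and beta) gave different results. *Nr1d1* (chromosome 11, 98767932 to 98775377) read 7.67, 7.71 and 8.87 in basal WT, 8.23, 8.65 and 7.7 in basal KO, 8.72, 8.07, 7.61 and 7.85 in TAC WT and 7.85, 7.95, 7.91 and 8.09 in TAC KO. The groups overlapped in every comparison, and no difference exceeded 0.24 in size (adjusted p of 0.537 and above). *Nr1d2* (chromosome 14, 18204056 to 18239106) read 10.33, 10.3 and 10.15 in basal WT, 9.72, 9.75 and 9.37 in basal KO, 11.08, 10.91, 9.98 and 10.04 in TAC WT and 10.76, 10.31, 10.39 and 9.86 in TAC KO on 1416958_at. The 3 basal KO arrays were the lowest of all 14, and TAC WT 1 and 2 the highest.

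*Nr1d2* rose by 0.72 in KO hearts (SE 0.26, adjusted p = 0.0418, 1.64-fold, no overlap). The call was lost in 10 of 24 other settings, with adjusted p up to 0.142. It was lost without any 1 of basal KO 1 (0.0723), 2 (0.0671) or 3 (0.142), of TAC KO 1 (0.103), 2 (0.0685) or 3 (0.0783), or of basal WT 1 (0.0517), 2 (0.0522) or 3 (0.0516). The estimate stayed between 0.57 and 0.87. Its dimmer probe set 1416959_at gave 0.57 (adjusted p = 0.101). In WT hearts the 2 probe sets gave 0.24 (adjusted p = 0.458) and -0.17 (0.607).

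*Dbp* (chromosome 7, 45705100 to 45710203), an output activator with one of the widest daily swings in most tissues, varied widely between TAC arrays. Its brightest probe set, 1418174_at, read 8.17, 8.11 and 7.93 in basal WT and 6.62, 7.39 and 7.21 in basal KO. After TAC it read 9.45, 8.86, 7.31 and 7.43 in WT and 8.37, 7.8, 8.22 and 7.23 in KO. The TAC WT arrays split into a high pair, 1 and 2, and a low pair, 3 and 4, on either side of basal WT. The second probe set, 1438211_s_at, read 7.86, 7.29 and 7.22, then 6.78, 7.05 and 6.6, then 9.73, 9.24, 8.0 and 7.98, and then 8.43, 7.95, 8.13 and 7.49 in the same order of groups. On it too TAC WT 1 and 2 were the highest, but all TAC WT arrays lay above basal WT.

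The test of *Dbp* after TAC depended on the probe set and, in KO hearts, on the fit. On 1418174_at the difference was 0.19 (SE 0.44, adjusted p = 0.733) in WT and 0.83 (SE 0.44, adjusted p = 0.141) in KO hearts. The latter passed with only the arrays of the comparison (0.83, adjusted p = 0.0305), array weights (1.03, 0.00913) or a block for the replicate number (1.08, 0.0464). On 1438211_s_at *Dbp* rose by 1.28 in WT (SE 0.37, adjusted p = 0.0127, 2.43-fold) and by 1.19 in KO hearts (SE 0.37, adjusted p = 0.0213, 2.28-fold), with no overlap in either. The suffix marks a probe set that can match more than 1 transcript. Both probe sets put the basal KO arrays below the basal WT arrays.

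**Figure D2:**
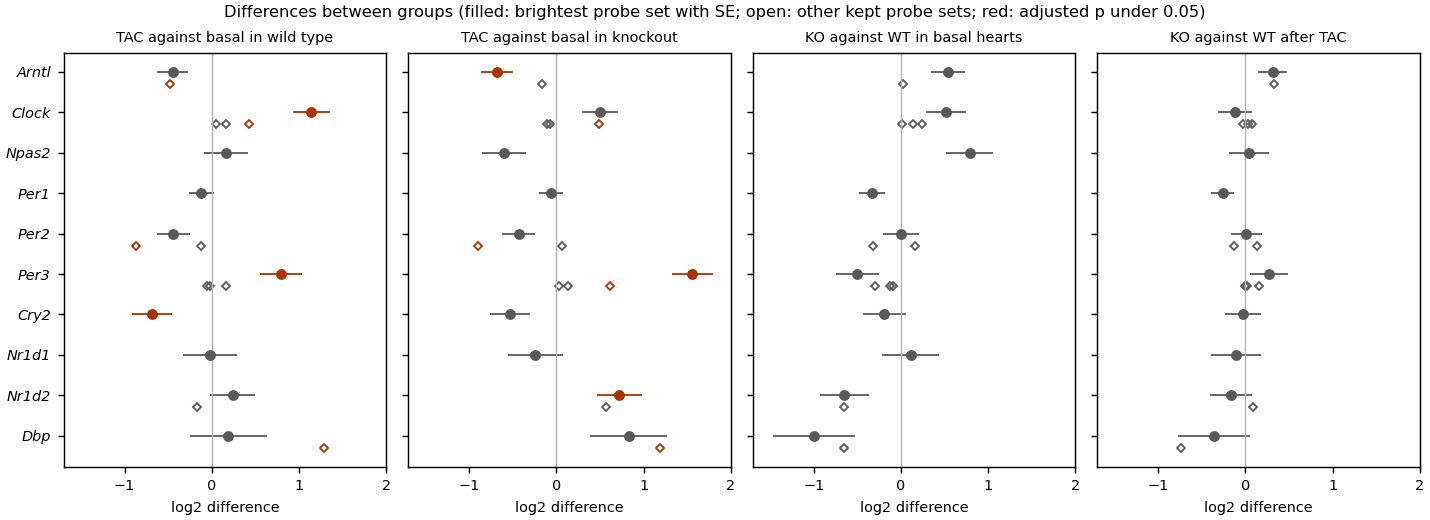
Log2 difference (horizontal axis) of each clock gene in 4 comparisons; filled points are the brightest probe sets with their SE, open diamonds the other kept probe sets, and red marks adjusted p under 0.05. In the comparisons of TAC with basal hearts 7 of 21 probe sets are red in each genotype, and none is red between genotypes.

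In basal hearts the question was whether the genotypes differed before any surgery. No clock gene passed between KO and WT (adjusted p of 0.824 to 1.0), and neither did any of the 12260 genes (0.0%). Each gene was counted by its brightest probe set, so this does not show that *Hspb8* itself was unchanged. Its probe set named above separated the genotypes in every array. Another *Hspb8* probe set, with the suffix _x_at, read 8.79 to 10.01 in WT and 8.2 to 8.84 in KO arrays. Without _x_at and _s_at probe sets, 1 of 11877 genes passed in basal hearts, lower in KO. With all kept probe sets, 5 of 10 clock genes stood at an unadjusted p under 0.05, against 5.51% of all genes. These were *Arntl* (0.54, SE 0.20, adjusted p = 0.837), *Clock* (0.52, SE 0.23, 0.866) and *Npas2* (0.79, SE 0.27, 0.824), higher in KO, and *Per1* (-0.33, SE 0.15, 0.866) and *Nr1d2* (-0.65, SE 0.28, 0.865), lower in KO. *Npas2* passed the filter mainly through basal KO arrays, so its place in this count supports nothing. *Dbp* had a difference of -1.0 (SE 0.47, adjusted p = 0.874) and *Per3* of -0.50 (SE 0.25, adjusted p = 0.884). *Cry2* (-0.19), *Nr1d1* (0.11) and *Per2* (0.00) differed by less than their SE.

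The basal groups did not overlap in 6 of 10 clock genes, against 13.6% of all genes. *Arntl* and *Clock* were higher and *Per1*, *Per3*, *Nr1d2* and *Dbp* lower in every KO array than in every WT array. The second probe sets of *Nr1d2* (-0.65) and *Dbp* (-0.65) also did not overlap, whereas that of *Arntl* (0.02) did, and the other 3 of *Clock* gave 0.01 to 0.24 with overlap. The other kept probe sets of *Per3* gave -0.30 to -0.09, all with overlap. On its brightest probe set the basal KO mean of *Per3*, 5.64, is under the limit of 5.75. Without basal KO 3, the array of another day, 7 of 10 did not overlap, against 25.2%, the added one being *Npas2*, which was kept only through basal arrays, so that its addition supports nothing. In the same arrays 2 of 10 had an unadjusted p under 0.05, against 5.41%. That last count was 2, 1 and 3 without basal WT 1, 2 and 3, beside 828, 454 and 573 of all 12260 genes. Without basal KO 1 and 2 it was 2 and 3, beside 464 and 619 of all genes. All arrays of the basal comparison but basal KO 3 shared a day in their file names.

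Other markers moved with the basal split. Genes that respond to glucocorticoids, hormones with a daily rhythm of their own, were lower in basal KO on 10 of 10 kept members (median -0.37, beside 0.01 for all genes), and their mean level was 11.01 to 11.33 in WT and 10.64 to 10.81 in KO arrays. None of them passed; *Cebpd*, a stress-responsive transcription factor, came nearest (-1.35, SE 0.27, adjusted p = 0.339). Macrophage and fibroblast marker means, given above, were higher in all basal KO than in all basal WT arrays. Of single markers, 7 of 8 macrophage and 8 of 8 fibroblast ones were higher in KO, none past the threshold. The macrophage marker *Cd14* was lower (-0.94, SE 0.37, adjusted p = 0.841). Cardiomyocyte marker means were 14.2 to 14.26 in WT and 14.19 to 14.22 in KO. The part of any of these in the clock differences was not tested.

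After TAC no clock gene separated the genotypes. None passed between KO and WT, where 1 of 12260 genes did (0.00816%). At an unadjusted p under 0.05 there were 0 of 10, against 7.82% of all genes, and in 0 of 10 did the groups not overlap, against 3.99%. Of the brightest probe sets, those nearest the threshold were *Per1* (-0.26, SE 0.13, adjusted p = 0.627) and *Arntl* (0.31, SE 0.17, adjusted p = 0.697). The dimmer probe set of *Arntl*, 1457740_at, gave 0.33 (SE 0.16, adjusted p = 0.634). *Dbp* differed by -0.36 (SE 0.41, adjusted p = 0.877) on its brightest probe set. On 1438211_s_at it differed by -0.74 (SE 0.35, adjusted p = 0.617), the nearest of all kept clock probe sets. The test of whether the genotype effect differed between TAC and basal hearts called none of the 10 and none of all genes (0.0%). It gave 1 of 10 an unadjusted p under 0.05, against 7.44%, namely *Per3* (0.77, SE 0.34, adjusted p = 0.607).

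To set each array on a single scale, the mean deviation of 7 genes known as targets of the activator pair (*Per1*, *Per2*, *Per3*, *Cry2*, *Nr1d1*, *Nr1d2* and *Dbp*) from their means over all arrays was taken, minus that of the 3 activators. This clock contrast, a difference in log2 units with no test, was 0.63, 0.61 and 0.03 in basal WT and -0.69, -0.54 and -0.45 in basal KO. It was 0.89, 0.52, -0.52 and -0.36 in TAC WT and 0.18, 0.03, 0.15 and -0.50 in TAC KO. The basal KO arrays lay close together (-0.56 ± 0.12, SD, n = 3) below all basal WT arrays (0.42 ± 0.34, SD, n = 3). The TAC WT arrays spanned the widest range (0.13 ± 0.68, SD, n = 4), with arrays 1 and 2 above 0 and arrays 3 and 4 below it, and the TAC KO arrays averaged -0.03 ± 0.32 (SD, n = 4). Without *Npas2*, kept only through basal arrays, the contrast was 0.44, 0.76 and 0.13 in basal WT and -0.61, -0.22 and -0.52 in basal KO, so that the groups did not overlap but basal KO lay less close together (-0.45 ± 0.20, SD, n = 3). Without *Cry2* and *Clock*, basal WT 3 (-0.22) lay above the basal KO arrays (-1.05 to -0.68).

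**Figure D3:**
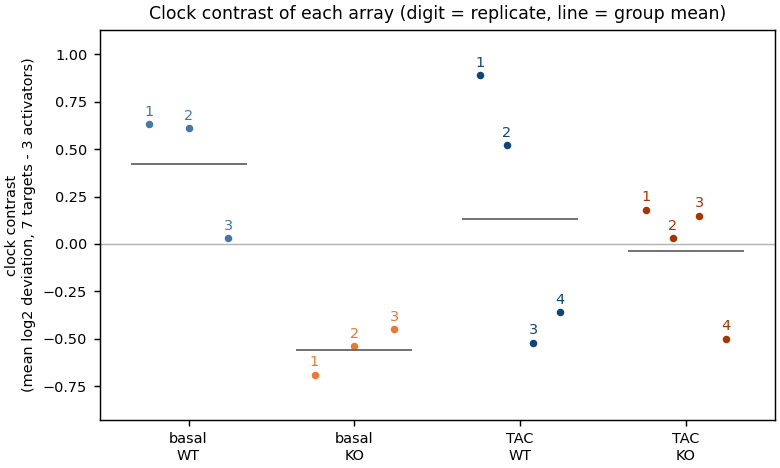
Clock contrast of each array (vertical axis, mean log2 deviation of 7 known targets of the activator pair minus that of 3 activators), by group; digits are replicate numbers and lines are group means. The 3 basal KO arrays lie between -0.69 and -0.45 and the basal WT arrays between 0.03 and 0.63, while TAC WT arrays run from -0.52 to 0.89.

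Pooled over the 4 groups, the spread between arrays was largest for *Dbp* among the clock genes, through the TAC WT arrays. Its SD was 1.06 in TAC WT, 0.51 in TAC KO, 0.40 in basal KO and 0.12 in basal WT, and in both basal groups *Nr1d1* (0.68 in WT, 0.48 in KO) and *Npas2* (0.57 and 0.53) spread more. The pooled within-group SD of *Dbp*, 0.67, was above that of 98.0% of the 12260 genes, whose median was 0.2. By this pooled SD *Nr1d1* (0.46), *Nr1d2* (0.39), *Npas2* (0.37), *Per3* (0.35), *Cry2* (0.34) and *Clock* (0.31) followed, then *Per2* (0.27) and *Arntl* (0.25), and *Per1* (0.17) lay below the median of all genes. In TAC WT, the high *Dbp* arrays 1 and 2 had macrophage marker means of 8.41 and 8.89 and cardiomyocyte marker means of 14.32 and 14.34, and the low arrays 3 and 4 had 10.62 and 9.03 and 13.94 and 14.16. Their part in the spread of *Dbp* was not tested.

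Other clock genes ran with *Dbp* from array to array, chiefly after TAC. After each gene's group means were taken out, the correlation with *Dbp* over the 14 arrays was 0.90 for *Nr1d2*, 0.85 for *Per3* and 0.70 for *Cry2*, but 0.28 for *Per2*, 0.27 for *Per1* and 0.37 for *Nr1d1*. It was -0.79 for *Clock*, -0.67 for *Arntl* and -0.13 for *Npas2*. Among the regulators outside the 10, *Tef* (0.90) and *Hlf* (0.80), the relatives of *Dbp*, and *Rora* (0.87), a ROR receptor, ran with it, and *Bhlhe40* (-0.80), an E-box repressor, ran against it. Over the 8 TAC arrays alone, r was 0.98 for *Nr1d2*, 0.89 for *Per3*, -0.91 for *Clock* and -0.82 for *Arntl*. Over the 6 basal arrays it was -0.07 for *Nr1d2*, 0.54 for *Per3*, -0.46 for *Clock* and -0.32 for *Arntl*, and without TAC WT 0.68, 0.74, -0.70 and -0.32. For these 4 genes the basal arrays thus gave weaker correlations than the TAC arrays, whereas for *Cry2* r was 0.76 in basal and 0.72 in TAC arrays, and 0.32 without TAC WT. These values are a description of arrays that share their normalization.

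Many genes outside the clock followed *Dbp* at least as closely. Of 12259 other genes, *Tef* ranked 176, *Nr1d2* 189 and *Per3* 499 from the highest, and *Clock* 1020 from the lowest. The 8 highest were *Ubr2* and *R3hdm2* (0.98), *Ulk1*, *Ube2b* and *Qrsl1* (0.97) and *Kcnv2*, *Ndufa6* and *Mylk4* (0.96). The 8 lowest were *Dcbld2* (-0.98), *Marchf3* and *Zfp330* (-0.97) and *Rpl8*, *Map1b*, *Arfip1*, *Rhoc* and *Actn1* (-0.96). The genes nearest to *Dbp* across arrays were thus not the named clock genes.

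**Figure D4:**
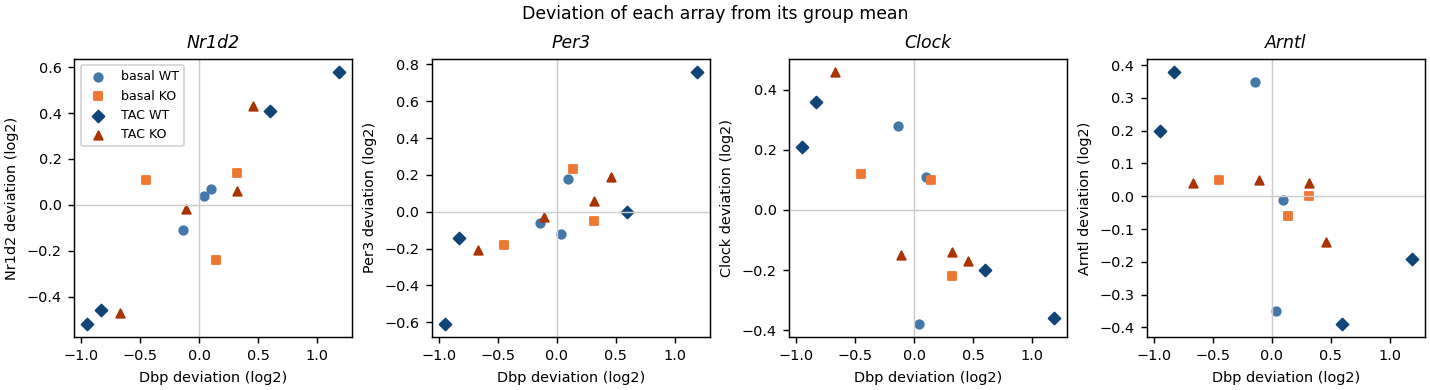
Deviation of each array from its group mean, in log2 units, for *Dbp* (horizontal axes) against *Nr1d2*, *Per3*, *Clock* and *Arntl* (vertical axes), with a colour and marker for each group. *Nr1d2* and *Per3* deviate with *Dbp* (r of 0.90 and 0.85) and *Clock* and *Arntl* against it (-0.79 and -0.67), with the TAC WT arrays at both ends.

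*Arntl* was set against each other member in the same way, with an exact test that permuted arrays within groups, two-sided, over 9 pairs. It ran with *Clock* (Pearson r = 0.75, permutation p = 0.0215, adjusted 0.192; Spearman rho = 0.78, p = 0.0178, adjusted 0.07). It ran against *Dbp* (r = -0.67, permutation p = 0.0639, adjusted 0.192; rho = -0.80, p = 0.0119, adjusted 0.07). For *Nr1d2* r was -0.67 (permutation p = 0.0464, adjusted 0.192) and rho was -0.63 (permutation p = 0.086, adjusted 0.155). For *Cry2* r was -0.66 (permutation p = 0.0994, adjusted 0.224) and rho was -0.81 (permutation p = 0.0233, adjusted 0.07). None of the 9 pairs passed once adjusted, and r for the other 5 lay between -0.41 (*Per3*) and 0.29 (*Npas2*). Without TAC WT 2 and basal WT 2, the arrays farthest from the median, r was 0.67 for *Clock*, -0.79 for *Dbp*, -0.73 for *Nr1d2* and -0.66 for *Cry2*, and that for *Per3* went from -0.41 to -0.75. With the kept probe sets of each gene averaged, r was 0.13 for *Clock*, -0.30 for *Dbp* and -0.13 for *Nr1d2*, so these 3 relations rest on the brightest probe sets, while that for *Cry2* was -0.57.

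By the same measure *Clock* ranked 110 of 12259 from the highest with *Arntl*, and *Rora*, *Tef*, *Dbp* and *Nr1d2* ranked 300, 309, 349 and 362 from the lowest. The genes most like *Arntl* were *Zcchc17* (0.90), *Col5a3* (0.89), *Map1s*, *4930555F03Rik* and *Dpagt1* (0.88) and *Snhg4*, *Lhfp* and *Yipf3* (0.86). Those most unlike it were *Nomo1* (-0.93), *Tmem144*, *Tmem140* and *Fam110b* (-0.91), *Dlg1* and *Spag9* (-0.89) and *2510002D24Rik* and *Ttc3* (-0.88).

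Other regulators of the clock were called about as often as all genes after TAC, 5 of 8 in WT (50.2% of all genes) and 3 of 8 in KO hearts (43.6%). These 8 were kept of 11 listed; *Bhlhe41* and *Rorb* did not pass the filter. In WT hearts 1 rose and 4 fell: *Bhlhe40* rose by 0.67 (adjusted p = 0.0314), and *Hlf* fell by 1.48 (0.019), *Nfil3*, the D-box repressor, by 1.19 (0.00891), *Rora* by 0.92 (0.00077) and *Arntl2*, a relative of *Arntl*, by 0.32 (0.048). In KO hearts *Bhlhe40* rose by 0.73 (adjusted p = 0.0244) and *Nfil3* fell by 1.10 (0.0157) and *Rora* by 0.53 (0.0201). The median of the 8 was -0.43 in WT and -0.35 in KO hearts, beside 0.02 and -0.02 for all genes. *Tef* (-0.54 in WT, adjusted p = 0.0758), *Cry1* (-0.32, 0.363) and *Ciart* (-0.22, 0.582) did not pass. Between basal genotypes all 8 had lower means in KO, none past the threshold (median -0.21).

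Enzymes that modify clock proteins were called on all 7 kept members in both genotypes, 3 higher and 4 lower, where 50.2% of all genes were called in WT and 43.6% in KO hearts. *Gsk3b*, a kinase of clock proteins, rose by 1.15 in WT and 0.87 in KO hearts (adjusted p = 6.91e-05 and 0.000498), and *Csnk1a1* rose by 0.65 and 0.59 (0.000687 and 0.00167). *Csnk1d*, a casein kinase that acts on PER proteins, fell by 0.87 and 0.73 (3.34e-05 and 0.000136), and *Usp2*, a deubiquitinase, fell by 1.16 and 0.95 (0.00361 and 0.0133). *Fbxw11*, a ubiquitin ligase subunit, rose by 0.79 in WT hearts (0.00128). These genes serve many other pathways.

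Of 10 kept genes known as clock outputs in heart or other tissues, 0 rose and 8 fell after TAC in WT hearts, where 23.5% of all genes fell. In KO hearts 1 rose and 5 fell, where 21.3% of all genes fell. The median differences were -1.33 and -1.18. This list was chosen with earlier results of these data known, and both comparisons cross the array runs. Any part of the clock in these falls was not tested. *Klf15*, a regulator of cardiac metabolism and repolarization, fell by 2.08 in WT (adjusted p = 0.0013) and 1.49 in KO hearts (0.0107). *Kcnip2*, a subunit of the transient outward potassium channel, fell by 2.02 in WT (0.0295) and fell by 2.60 in KO hearts (0.0106), and *Dgat2*, an enzyme of triglyceride synthesis, fell by 1.66 (0.00213) and 1.28 (0.0114). *Wee1*, a cell cycle kinase, rose by 0.77 in KO hearts (0.00156). Between basal genotypes 0 of 10 had a higher mean in KO (median -0.36, none past the threshold), and the list's mean was 10.08 to 10.2 in basal WT and 9.63 to 9.89 in basal KO arrays.

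Of the 10 glucocorticoid-responsive genes, 0 rose and 4 fell after TAC in WT hearts, among them *Tsc22d3* (fell by 0.76, adjusted p = 0.00472) and *Cebpd* (fell by 0.87, 0.0113). In KO hearts 1 rose, the metallothionein *Mt2* (by 1.79, adjusted p = 0.00203), and 2 fell, *Tsc22d3* (by 0.72, 0.0081) and *Klf9* (by 0.70, 0.0487). Of 9 kept immediate early genes, 1 rose and 1 fell in WT and 0 rose and 1 fell in KO hearts. Macrophage markers were called higher on 6 of 8 in both genotypes, and fibroblast markers on 6 of 8 in both, with 1 lower in WT. Endothelial markers were called lower on 4 of 8 in WT and 3 of 8 in KO hearts. Of all genes, 26.7% rose and 23.5% fell in WT and 22.4% and 21.3% in KO hearts. The part of these cell type markers in the clock results after TAC was not tested.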

How the data were processed

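The values were deposited by the authors as log2 expression per probe set, made from probe intensities with RMA per the submitters' processing notes; the version of RMA and whether it was run on the basal and TAC arrays jointly are not known here. Total RNA was isolated with Trizol, per the labels. The table held 45101 probe sets, 64 of them controls, which were left out. Symbols came from GEO's platform annotation, updated through RefSeq of GRCm38.p6: 34958 probe sets had 1 symbol (34754 matched by gene number), 932 several and 9211 none. Gene positions and promoters are RefSeq's.

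In R 4.3.3, limma 3.58.1 (lmFit, contrasts.fit, eBayes) fitted the 4 groups, read from the sample titles, to all 14 arrays (10 residual and 3.73 prior degrees of freedom) on 24525 kept probe sets; the script was tested on simulated data. The 5 comparisons were TAC against basal in each genotype, KO against WT within basal and within TAC hearts, and the genotype effect after TAC minus that before. A fold whose lower group averaged under 5.75 is given as a lower bound. Correlations used deviations from group means, with 20736 permutations of arrays within groups. Precision is limited by the number of arrays.

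Every clock gene was reported on its brightest probe set in the comparisons of TAC with basal hearts and of the basal genotypes. Other kept probe sets, and differences between the genotypes after TAC, were given in part. Of each other list the counts and up to 4 members with the smallest p in a comparison were named, with a few further members to complete a count. For likeness the 8 highest and 8 lowest genes were named. The clock genes and lists were chosen with earlier results of these data known. Alternatives were no filter, a stricter filter (7.7), 1 probe set per gene before adjustment, averaging the kept probe sets of a gene (for correlations and the clock contrast), quantile normalization, median centring, only the arrays of a comparison, eBayes with trend and robust, array weights, a block for the replicate number, no _x_at or _s_at probe sets, leaving out each array, and, for the clock contrast, leaving out Cry2 and Clock. The counts of basal clock genes by unadjusted p in each setting, and of groups that do not overlap without basal KO 3 or TAC WT 3, the clock contrast without Npas2, and likeness to Dbp in subsets of arrays were added after seeing the data.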

Additional observations from a re-analysis of the deposited data

Results flagged for a closer look

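In the 4 arrays of a TAC group, 3 values stood apart from the other replicates by Dixon's criterion, of 42 probe set and group combinations tested, of which chance flags about 5%. All were TAC KO arrays. TAC KO 1 was low in *Arntl* (1425099_a_at, 7.76, with the others at 7.94 to 7.95). TAC KO 4 was high in *Clock* (1418659_at, 9.63, with the others at 9.0 to 9.03) and low in *Per1* (1449851_at, 7.65, with the others at 8.12 to 8.18).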

How the results depend on the processing

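Against 24 other settings, *Clock* in WT hearts (0.95 to 1.28) and *Arntl* in KO hearts (-0.79 to -0.63) passed in all 24, and *Per3* in KO hearts (1.47 to 1.68) in all 23 that hold it. *Cry2* in WT hearts passed in 19 of 24, *Per3* in WT in 21 of 23 and *Nr1d2* in KO in 14 of 24. The number of clock genes called after TAC in WT was 5 with quantile normalization and 1 with only the arrays of the comparison (50.3% and 39.1% of all genes). It ran from 2 to 5 when 1 array was left out (5 without TAC WT 4, against 42.4% of all genes). In KO it was 8 with only the arrays of the comparison (48.5% of all genes) and 8 with array weights (55.4%), both above the share of all genes. It ran from 2 to 5 when 1 array was left out (5 without TAC WT 3, against 49.0% of all genes). KO against WT after TAC called 1 clock gene with array weights, *Arntl* (0.55, adjusted p = 0.0265), where calls among all genes went from 1 to 1458; they were 93 without TAC WT 3 and 19 without TAC WT 4, and 2 with quantile normalization. The cause of these changes was not tested. Replicate numbers did not pair most samples (same-number correlations of -0.085 to 0.579). The highest were those of TAC WT 1 with TAC KO 1 (0.579) and TAC WT 4 with TAC KO 4 (0.503). Each was the highest of that WT array with any TAC KO array. The others were at most 0.076, and whether same-numbered arrays were collected together was not tested. With the number as a replicate block, 4 clock genes were called in each TAC comparison and 0 in the others. Of all genes, that block called 45.4% in WT and 38.3% in KO hearts after TAC. In basal hearts the clock genes with an unadjusted p under 0.05 numbered 1 to 7 when 1 array was left out. The number was 1 without basal WT 2 (454 of all 12260 genes) and 7 without TAC WT 1 (736) or TAC WT 3 (856). Clock genes without overlap in basal hearts numbered 7 without basal KO 3, against 25.2% of all genes. After TAC in WT those without overlap numbered 2 without TAC WT 3, against 53.5%. The share of called genes that were higher was 53.2% in WT, 41.0% with quantile normalization and 62.8% with median centring, and the median of all genes went from 0.02 to -0.10 and 0.10. It was 41.7% with no filter and 64.2% with the stricter one. Of 1175 clock gene differences over settings, 40 changed sign, none of them past the threshold (at most 0.37 in size). Correlations with *Arntl* ran from -0.03 to 0.37 (*Npas2*), -0.48 to 0.13 (*Per2*; 0.06 without basal WT 3) and -0.35 to 0.34 (*Nr1d1*; -0.04 without basal WT 2, and -0.04 without the 2 farthest arrays) when arrays were left out. The clock contrast of basal KO 1 and 3 was -0.55 and -0.31 with the kept probe sets of a gene averaged, and that of basal KO 2 was -0.22 without *Npas2*; without *Cry2* and *Clock* it was 0.24 in basal WT 2 and -0.97, -1.05 and -0.68 in basal KO 1, 2 and 3. Probe sets near the limit of 5.75, such as that of *Npas2*, give little signal over background.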
